A study of Homo sapiens with 6 samples.

Results

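The 46 genes described here drive or mark the G2 phase and mitosis, from CDK1 and its cyclins through the spindle checkpoint to the kinesin motors and the proteins of cytokinesis. They were measured in 6 subcutaneous tumors of BxPC-3, a human pancreatic cancer cell line, grown in female BALB/c (nu/nu) mice. The 3 control tumors came from mice given the vehicle alone, and the 3 others from mice given the oral iron chelator deferasirox (DFX) by gavage at 200 mg/kg, 3 times per week over 21 days, once tumors had reached 150 mm3. The study asked which genes DFX altered in these tumors, and its 3 tumors per group were drawn at random from larger groups. All tumors came from 1 cell line, and athymic hosts lack mature T cells. Genes were chosen by their symbol on a human 60-mer array with 1 array per tumor, and every one of the 46 symbols was found, among 34423 gene names on the array. All 46 passed the detection filter (a p-value under 0.05 against background on all 6 arrays), as did 22718 genes in total, and all 46 were well above background on every array.

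Cells enter mitosis when CDK1, bound to cyclin B, is activated by CDC25 phosphatases, and PLK1 and the Aurora kinases then build the spindle. The spindle checkpoint holds chromosome separation until every kinetochore is attached, after which CDC20 and the anaphase-promoting complex (APC/C) mark cyclin B and securin for destruction. Messenger RNAs of most of these genes rise together in late S, G2 and M phase. In bulk tissue the level of those genes therefore follows the share of dividing cells. In a bulk tumor sample, fewer dividing cells and less RNA per dividing cell cannot be told apart.

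Depth on these arrays is given by signal over background. Between 50.3% and 56.5% of all probes were well above background on each array, no spot was saturated, and log2 intensities of 2 arrays correlated at 0.98 to 0.99 across tested probes. All arrays lay on 1 slide, where row 1 held the 3 controls and row 2 the 3 treated tumors, so row and treatment cannot be told apart. Epithelial markers were present, with KRT19, a keratin of pancreatic duct cells, at log2 intensities from 18.44 to 18.54. Precision is limited by the number of arrays throughout.

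The 60-base probes that carry several of the results are shown here, since a value on this array is the signal of its probe. Those of CDK1, CCNB1, PLK1, AURKB and KIF20A cover a longer stretch of the hg19 genome than their own length, so each crosses at least 1 exon junction and reads spliced RNA. The positions were taken from the annotation of the array.
CDK1 (chr10:62552004-62553650): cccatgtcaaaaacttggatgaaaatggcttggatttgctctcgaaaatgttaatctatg
CCNB1 (chr5:68471363-68473123): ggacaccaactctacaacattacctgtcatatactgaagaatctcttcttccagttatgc
PLK1 (chr16:23700970-23701212): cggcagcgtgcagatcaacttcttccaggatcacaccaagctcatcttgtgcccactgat
AURKB (chr17:8110655-8110917): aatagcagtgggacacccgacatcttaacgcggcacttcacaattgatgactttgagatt
KIF20A (chr5:137522081-137522804): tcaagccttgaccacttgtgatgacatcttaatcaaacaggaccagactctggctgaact

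No member passed the test between DFX-treated and control tumors. The smallest difference was that of PRC1, the microtubule bundler of the spindle midzone, and the largest that of KIF20A, a kinesin of cytokinesis, which was 18.0% lower in the mean with overlapping groups. By limma, 0 of 46 members had an unadjusted p under 0.05 and 0 an adjusted p under 0.05. Over all tested genes 1812 of 22718 (7.98%) passed unadjusted, 4.29% of all genes with lower and 3.68% with higher values after DFX, and none of them passed after adjustment. The members' unadjusted p-values lay between 0.252 and 0.982, and their Benjamini-Hochberg adjusted p-values between 0.744 and 0.996. The 2 groups of tumors overlapped for all 46 members, whereas 15.4% of all tested genes did not overlap. In the mean, 30 members were lower and 16 higher after DFX, with a median log2 fold change of -0.06 beside -0.01 for all tested genes.

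Precision sets what such a comparison can show. The 95% interval of the log2 fold change held 0 for all 46 members, and its median half-width was 0.55. The lowest bound was -1.20, for PLK1, and the highest was 0.84, for CDC25B. Intervals of 2 members, PLK1 and AURKB, reached below -1 and none reached 1. A p above the threshold therefore does not show that these genes were equal in the groups.

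**Figure D1:**
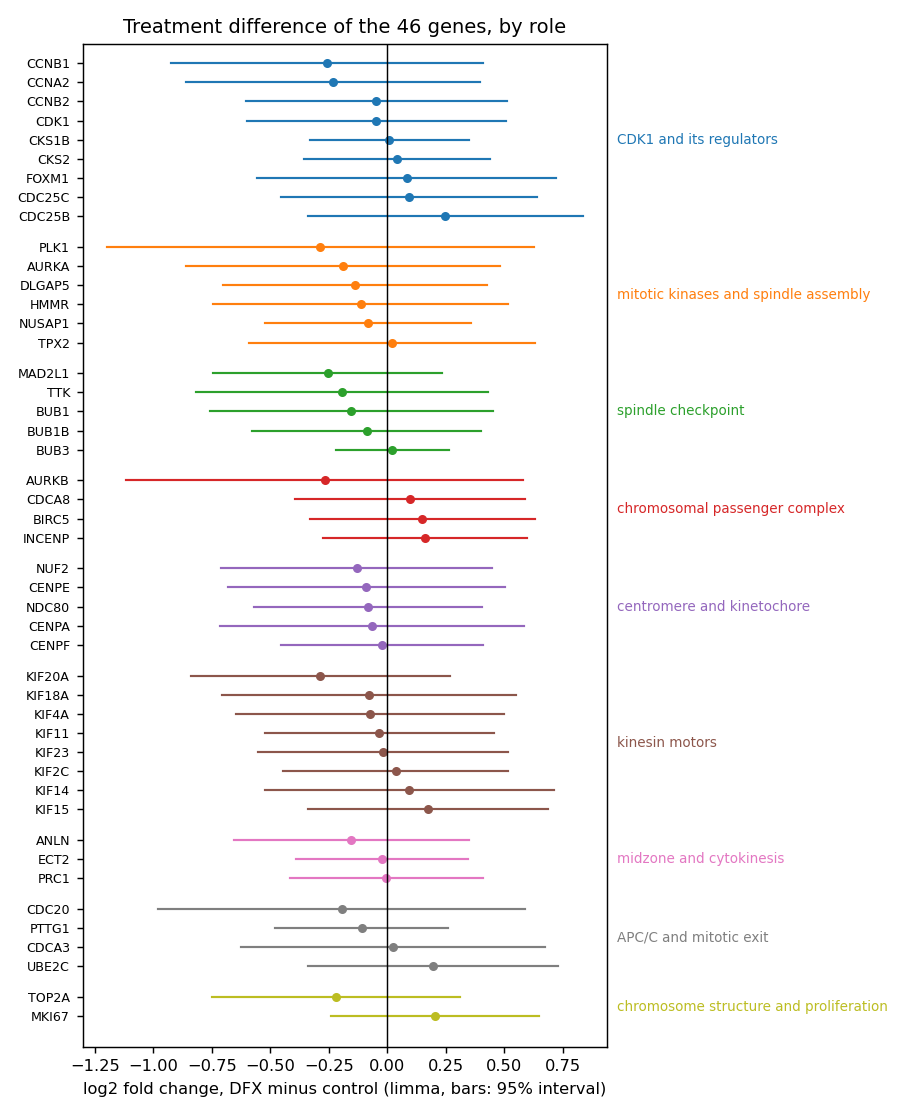
Log2 fold change (DFX minus control, horizontal axis) of each of the 46 genes, grouped by role, as a point with its 95% interval from limma (3 tumors per group). Every interval crosses 0, and the points lie between -0.29 for KIF20A and 0.25 for CDC25B.

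CDK1 and its regulators came first in the order of mitotic entry, with 9 members, 4 lower and 5 higher in the mean and a median log2 fold change of 0.01. CDK1, the kinase that starts mitosis, read 10.99, 11.11 and 11.71 on the log2 scale in control tumors 1, 2 and 3, and 11.33, 11.37 and 10.98 in DFX-treated tumors 1, 2 and 3. The DFX-treated tumors lay almost wholly inside the span of the controls, and the difference was -0.05 (SE 0.23, adjusted p = 0.966 by limma). CCNB1, its activating partner cyclin B1, read 11.49, 11.76 and 12.42 in control tumors and 11.77, 11.82 and 11.32 after DFX, a difference of -0.26 (SE 0.27, adjusted p = 0.807). CCNA2, the cyclin of S phase and early mitosis, read 8.96, 9.34 and 9.80 in control tumors and 9.24, 9.36 and 8.80 after DFX, a difference of -0.23 (SE 0.26, adjusted p = 0.816). For each of the 3 genes control 3 was highest and DFX 3 lowest, while the other DFX-treated tumors sat between the extremes of the controls. CDC25B, a phosphatase that activates CDK1, had the highest fold change of all members. It read 10.99, 11.60 and 11.71 in control tumors and 11.69, 11.95 and 11.40 after DFX, a difference of 0.25 (SE 0.24, adjusted p = 0.787). Control 1 was far below the other 5 tumors for this gene, and DFX 3 below the other controls. FOXM1, a transcription factor of G2/M genes, read 9.90, 10.36 and 10.67 in control tumors and 10.52, 10.66 and 10.001 after DFX, a difference of 0.08 (SE 0.26). CCNB2 (cyclin B2), CDC25C, and the small CDK-binding subunits CKS1B and CKS2 had differences from -0.05 to 0.09.

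Mitotic kinases and spindle assembly factors comprised 6 members, 5 lower and 1 higher, with a median of -0.13. PLK1, the polo-like kinase of centrosomes and kinetochores, spread most widely of all members when each gene was read by its brightest probe. By that probe its log2 intensity was 8.59, 9.10 and 9.48 in control tumors and 8.96, 9.28 and 8.06 after DFX. DFX 3 alone lay below every control, and without replicate DFX 3 the difference of -0.29 (SE 0.37, adjusted p = 0.845) became 0.07. AURKA, the Aurora A kinase of the spindle poles, read 10.705, 10.97 and 11.56 in control tumors and 11.04, 11.12 and 10.50 after DFX. Its difference was -0.19 (SE 0.27, adjusted p = 0.861). TPX2, which activates Aurora A on the spindle, was the one member of this group above 0, at 0.02 (SE 0.25), a sign that turned to -0.10 after median scaling and to a value just under 0 after 75th percentile scaling. NUSAP1, HMMR and DLGAP5, microtubule-binding proteins of the spindle, lay from -0.14 to -0.08.

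Spindle checkpoint genes numbered 5, with 4 lower, 1 higher and a median of -0.15. MAD2L1, which encodes the checkpoint protein MAD2, read 9.85, 9.84 and 10.38 in control tumors and 9.86, 9.92 and 9.51 after DFX, a difference of -0.25 (SE 0.20, adjusted p = 0.744). Control 3 and DFX 3 made up most of that difference, since the other 4 tumors lay between 9.84 and 9.92. BUB3, the partner of BUB1 and BUBR1, did not follow the others. By its brightest probe it read 12.30, 12.31 and 12.30 in control tumors and 12.38, 12.23 and 12.38 after DFX, the narrowest span of all members (0.15). BUB1, BUB1B and the checkpoint kinase TTK had differences from -0.19 to -0.09.

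Members of the chromosomal passenger complex, which corrects faulty attachments and guides cytokinesis, did not share a sign. AURKB, its kinase, read 7.31, 8.06 and 8.22 in control tumors and 7.69, 8.07 and 7.03 after DFX, a difference of -0.27 (SE 0.35, adjusted p = 0.844). BIRC5 (survivin) read 12.41, 12.69 and 12.99 in control tumors and 13.00, 12.96 and 12.58 after DFX, a difference of 0.15 (SE 0.20, adjusted p = 0.846). INCENP, the scaffold, read 9.53, 9.91 and 10.05 in control tumors and 10.09, 10.10 and 9.78 after DFX, a difference of 0.16 (SE 0.18, adjusted p = 0.817). DFX 1 and DFX 2 were at or above the highest control for INCENP and near it for BIRC5, yet control 2 and control 3 exceeded DFX 3 for both genes. CDCA8 (borealin) stood at 0.10, so that 3 of the 4 subunits were higher and the kinase lower in the mean.

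Centromere and kinetochore genes numbered 5 and all had negative differences, with a median of -0.08. CENPF was closest to 0 at -0.02 and NUF2, a subunit of the NDC80 complex that binds microtubules, farthest at -0.13 (SE 0.24, adjusted p = 0.891). CENPA, the centromeric histone, the motor CENPE and NDC80 itself lay between them.

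Kinesin motors numbered 8, with 5 lower, 3 higher and a median of -0.03. KIF20A read 9.52, 9.65 and 10.23 in control tumors and 9.62, 9.67 and 9.25 after DFX, a difference of -0.29 (SE 0.23, adjusted p = 0.744). As with MAD2L1, control 3 was high and DFX 3 low, and the other 4 tumors spanned 9.52 to 9.67. KIF15, a motor that helps to keep spindle poles apart, read 8.94, 9.14 and 9.53 in control tumors and 9.51, 9.57 and 9.07 after DFX, a difference of 0.18 (SE 0.21, adjusted p = 0.830). KIF11, the main motor that separates the poles, was at -0.03 (SE 0.20), and KIF2C, KIF4A, KIF14, KIF18A and KIF23 lay between -0.08 and 0.10.

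Midzone and cytokinesis genes were 3, all with negative differences: ANLN (anillin) at -0.15 (SE 0.21, adjusted p = 0.847), ECT2, which activates RhoA at the cleavage site, at -0.02, and PRC1 at -0.004 (adjusted p = 0.996). Among 4 genes of APC/C activity and mitotic exit, CDC20, the activator of the APC/C, read 9.99, 10.60 and 10.77 in control tumors and 10.49, 10.62 and 9.67 after DFX, a difference of -0.19 (SE 0.32, adjusted p = 0.880). UBE2C, the ubiquitin-conjugating enzyme that works with the APC/C, read 12.77, 13.10 and 13.51 in control tumors and 13.42, 13.46 and 13.09 after DFX, a difference of 0.20 (SE 0.22, adjusted p = 0.817). The pair moved to opposite sides of 0, and neither beyond the spread between tumors. PTTG1 (securin), whose sequence is close to that of intronless copies so that its probe may not be specific, stood at -0.11, and CDCA3 at 0.02. TOP2A, the topoisomerase that untangles chromosomes, read 10.12, 10.24 and 10.78 in control tumors and 10.29, 10.29 and 9.90 after DFX, a difference of -0.22 (SE 0.22, adjusted p = 0.792).

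The level of these genes varied between tumors of the same group by more than it differed between groups. Each member's log2 intensity was set against its own mean over the 6 tumors, and the median over the 46 members was taken in each tumor. That median was -0.28, -0.02 and 0.38 in control tumors 1, 2 and 3, and 0.09, 0.15 and -0.30 in DFX-treated tumors 1, 2 and 3. Control 3 was thus the tumor with the highest level, and control 1 and DFX 3 were the lowest. Over tumors the median was 0.02 ± 0.33 (SD, n = 3) in the control and -0.02 ± 0.24 (SD, n = 3) in the DFX group. This description is made from the members themselves and has no test.

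**Figure D2:**
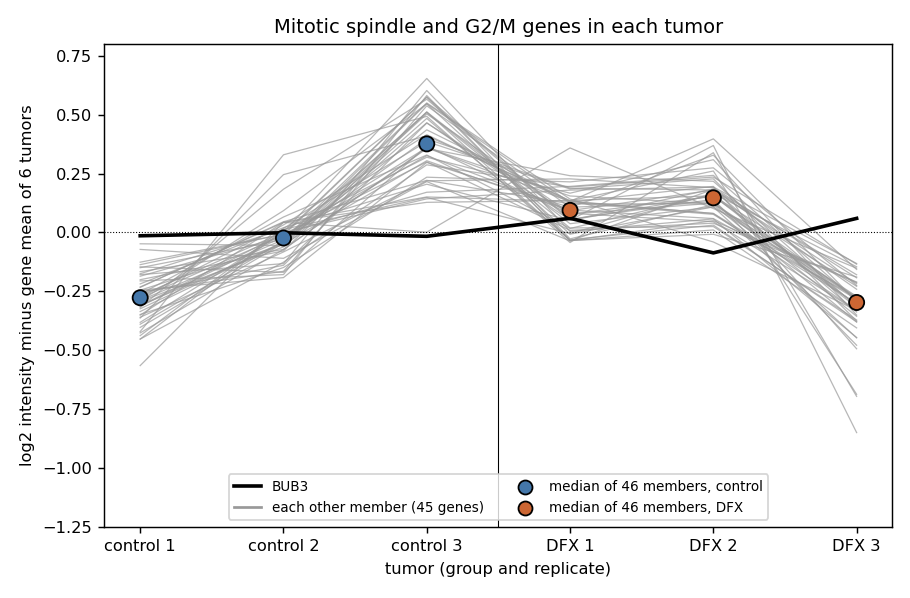
Log2 intensity of each member minus its mean over the 6 tumors (vertical axis), by tumor (horizontal axis), with 1 line per gene linking its own values and a circle for the median of the 46 members. Control 3 has the highest median (0.38) and DFX 3 (-0.30) and control 1 (-0.28) the lowest, while BUB3 (black) stays within a span of 0.15.

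Nearly every member took part in this pattern. The lowest of the 6 values fell in control 1 for 19 members and in DFX 3 for 26, together 45 of 46, where 35.3% of all tested genes had their lowest value in one of these tumors. The highest value fell in control 3 for 36 members (78.3%, against 25% of all tested genes), in DFX 2 for 7 and in DFX 1 for 3. Control 1 was below the members' own means for all 46, and DFX 3 for 45, BUB3 being the exception. All 46 members were lower in DFX 3 than in DFX 1, with a median difference of -0.40, although both tumors had the same treatment. In the same way 45 of 46 were higher in control 3 than in control 1, by a median of 0.71, with BUB3 the exception.

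The sign of the difference between 1 treated and 1 control tumor depended on the pair chosen. From control 1 to DFX 1 all 46 members were higher, by a median of 0.36. From control 3 to DFX 3, 45 of 46 were lower, with a median difference of -0.70. The span from lowest to highest tumor had a median of 0.77 for members and 0.59 for all tested genes, and it was at least 0.5 for 40 members and at least 1 for 5. By the brightest probe, those 5 were PLK1 (1.42), AURKB (1.19), CCNB1 (1.1), CDC20 (1.1) and AURKA (1.05). They are 3 mitotic kinases, cyclin B1 and the activator of the APC/C. Narrow spans were found for BUB3 (0.15), CKS1B (0.34) and CKS2 (0.39).

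The direction of the members' median rested on single tumors. Without control 3 it was 0.11, with 39 of 46 members higher after DFX, and without DFX 3 it was 0.08, with 34 higher. Without control 1 it was -0.19, with 39 lower. Median scaling in place of quantile normalization gave -0.17, with 40 members lower, under which the median of all tested probes was itself -0.10. In none of these settings did a member pass the unadjusted threshold. On arrays centred on the median of the 46 members, a setting chosen after seeing the data, the groups did not overlap for 12 members, beside 4.72% of all genes on the same scale. That centring subtracts the members' own median from every gene, and 15.4% of all tested genes did not overlap before it. It thus changed both sides of the comparison, so the members' share is given without a reading.

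Genes of the same phases that are not members were read as well. A list of 48 other G2/M genes, written from general knowledge, had 47 tested. By limma 2 of the 47 (both higher) had an unadjusted p under 0.05 and none lower, beside 7.98% of all genes in either direction, and 0 passed after adjustment. In the mean 28 genes of the list were higher and 19 lower, and their median difference on the log2 scale was 0.04. TACC3, a stabiliser of spindle microtubules that Aurora A recruits, read 8.64, 8.84 and 9.08 in control tumors and 9.46, 9.40 and 9.12 after DFX, a difference of 0.48 (SE 0.16, unadjusted p = 0.0263, adjusted p = 0.557). SMC2, a core subunit of condensin, read 9.93, 9.78 and 9.56 in control tumors and 10.15, 10.24 and 9.996 after DFX, a difference of 0.37 (SE 0.14, unadjusted p = 0.0350, adjusted p = 0.578). For both genes every DFX-treated tumor was above every control, although for TACC3 DFX 3 and control 3 were close together. By limma neither call was firm, since TACC3 lost it without control 1, control 2, DFX 1 or DFX 2 (unadjusted p from 0.0662 to 0.0854) and SMC2 without control 2, control 3, DFX 1 or DFX 2 (unadjusted p from 0.0726 to 0.105). PKMYT1, a kinase that inhibits CDK1, was at 0.44 (SE 0.20, adjusted p = 0.610), and SGOL1 (shugoshin 1), which protects centromeric cohesion, at 0.40 (SE 0.18, adjusted p = 0.610). The tumor medians of this list were -0.26, -0.11 and 0.29 in control tumors 1, 2 and 3, and 0.16, 0.11 and -0.20 in DFX-treated tumors 1, 2 and 3, with 31 of 47 genes highest in control 3. As for the members, control 3 had the highest median and control 1 and DFX 3 the lowest, but here control 1 lay below DFX 3 and was the lowest tumor for 26 genes against 16 for DFX 3.

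MCM and licensing genes encode the replicative helicase and factors that act in its loading, activation or control. By limma 0 of 21 had an unadjusted p under 0.05, beside 7.98% of all tested genes. Their median log2 fold change was 0.00, with 10 lower and 11 higher. Their tumor medians were -0.32, -0.07 and 0.26 in control tumors and 0.11, -0.004 and -0.12 after DFX. Control 3 was highest for 17 of the 21 genes and control 1 lowest for 16, so the controls held both ends. Core subunits of the APC/C, which are present throughout the cycle, showed little of this, with tumor medians from -0.11 to 0.07 over 13 genes and 0 passing the threshold. The 14 genes of the DREAM complex and its B-MYB and NF-Y partners, which repress or activate G2/M promoters, had 0 passing, and MYBL2 (B-MYB) read 8.62, 9.09 and 9.32 in control tumors and 9.46, 9.55 and 8.67 after DFX. Of 9 tested genes linked to arrest in G2, 0 passed, with CDKN1A (p21) at -0.19 (SE 0.20, adjusted p = 0.804) and WEE1 at 0.06 (SE 0.12, adjusted p = 0.904).

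Markers of epithelium and of host cells were read on the same arrays. Of all tested genes 7.98% had an unadjusted p under 0.05 by limma, 4.29% lower and 3.68% higher after DFX. Of 9 epithelial markers 3 were higher after DFX by limma at an unadjusted p under 0.05, namely EPCAM (0.43, adjusted p = 0.514), KRT8 (0.48, adjusted p = 0.553) and KRT18 (0.27, adjusted p = 0.575), and their median in control 3 was -0.35. Of 8 tested fibroblast markers, DCN (-1.30) and PDGFRA (-1.12) were lower and LUM (0.87) higher, with tumor medians of 0.27, 0.51 and -0.47 in control tumors and -0.08, -0.30 and 0.06 after DFX. Control 3, in which the mitotic genes were highest, thus had the lowest medians of both marker lists, but not of each gene, since 4 of the 8 fibroblast markers were lowest there and DCN and KRT7 were highest there. Of 5 tested endothelial markers, PECAM1 (1.27) was higher and ENG (-1.09) lower, the latter well above background in 3 control but only 1 of the DFX-treated tumors. The endothelial medians were -0.04, -0.39 and 0.48 in control tumors and -0.29, -0.002 and -0.24 after DFX, highest in control 3. Only 2 of the 5 genes, CDH5 and KDR, had their own highest value there. The signal of KDR was near background (well above it in 0 control and 0 DFX-treated tumors). PECAM1 went the other way, with 5.76 in control 3 and 6.59 to 7.06 after DFX. Of 5 tested leukocyte markers 0 passed, and PTPRC, the pan-leukocyte gene, lay between 6.48 and 7.71. Of 4 tested red blood cell genes, HBA2 (-1.93) and HBD (-1.12) were lower after DFX, with tumor medians of 0.92, 0.12 and 0.18 in control tumors and -0.46, -0.25 and -0.47 after DFX. None of these genes passed after adjustment, and KRT8, KRT18 and LUM lost the unadjusted call when some single tumors were left out (limma unadjusted p up to 0.0702, 0.107 and 0.125). Host transcripts are from mouse and were read by human probes, and the part of cell composition in the pattern of the mitotic genes was not tested.

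**Figure D3:**
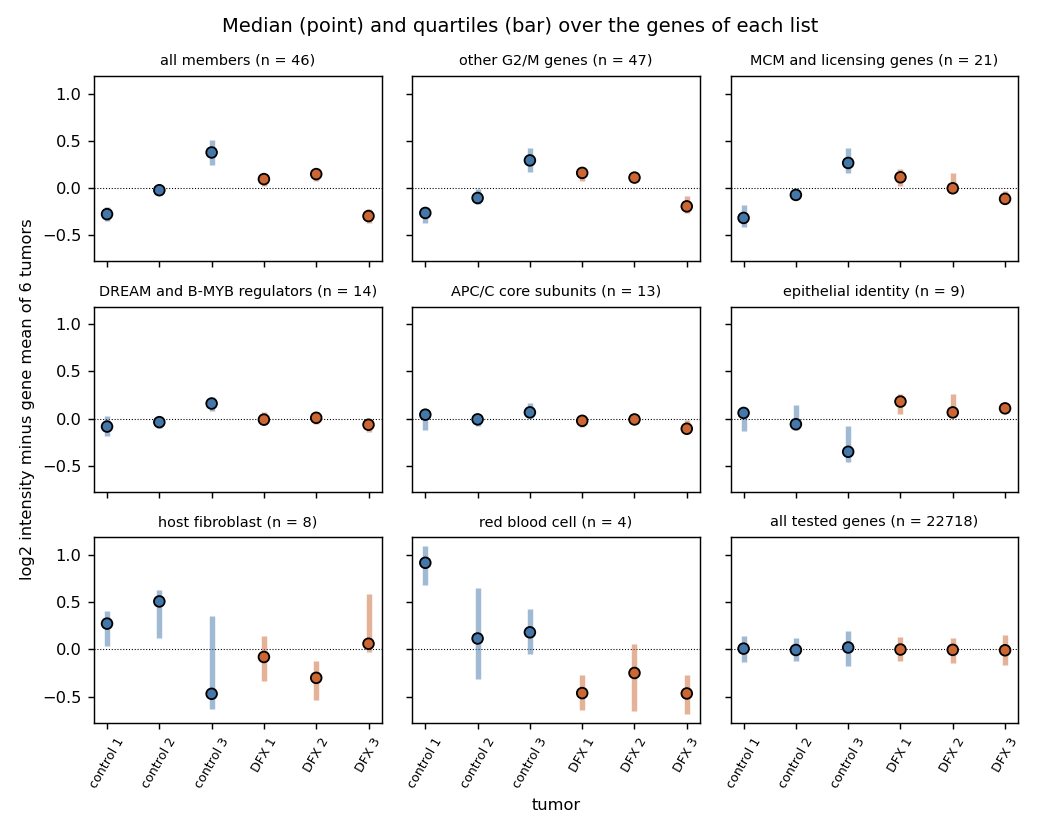
Median (circle) and quartiles (bar) over the genes of each list of the log2 intensity minus each gene's mean over the 6 tumors (vertical axis), by tumor (horizontal axis, control in blue, DFX in orange). Members, other G2/M genes and MCM genes share a low control 1 and a high control 3, whereas the medians of epithelial and fibroblast markers are lowest in control 3.

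Probes of 1 gene did not always give the same picture. The 46 members had 56 probes, all tested, and 9 members had more than 1. One of the 56 had an unadjusted p under 0.05, beside 8.41% of all tested probes. It was a probe of MKI67, the gene of the proliferation antigen Ki-67. By its brightest probe MKI67 read 9.86, 10.26 and 10.21 in control tumors and 10.57, 10.31 and 10.06 after DFX, a difference of 0.21 (SE 0.18, adjusted p = 0.768). A further probe read 9.85, 10.11 and 9.99 in control tumors and 10.51, 10.34 and 10.17 after DFX, a difference of 0.35 (SE 0.14, unadjusted p = 0.0399, adjusted p = 0.580), with no overlap. The remaining probe read 7.98, 8.39 and 8.69 in control tumors and 8.47, 8.50 and 7.61 after DFX, a difference of -0.16 (SE 0.30, adjusted p = 0.895). This dimmest of the 3 probes had control 3 as its highest and DFX 3 as its lowest tumor, as most members did, while the brighter pair had DFX 1 as the highest. The 2 brighter probes read different stretches of the transcript, as their sequences show.
MKI67, brightest probe (chr10:129907580-129907639): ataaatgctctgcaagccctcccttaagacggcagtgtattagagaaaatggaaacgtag
MKI67, probe without overlap (chr10:129913193-129913252): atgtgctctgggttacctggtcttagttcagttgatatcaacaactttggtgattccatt

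BUB3 differed by probe as well. Its brightest probe was level over all 6 tumors, as given above. Its other probe read 11.02, 11.26 and 11.44 in control tumors and 11.07, 11.08 and 10.89 after DFX, a difference of -0.23 (SE 0.14, adjusted p = 0.697). That probe had control 3 as its highest and DFX 3 as its lowest tumor, as most members did. Its values in DFX 1 and DFX 2 lay below control 2. By the brightest probe, 39 of 46 members were higher in DFX 1 than in control 2, and 44 in DFX 2. The dimmer BUB3 probe thus shared the extremes of the pattern but not these steps. The probe that varied is shown here, because its highest and lowest tumors were those of most members.
BUB3, dimmer probe (chr10:124917262-124917321): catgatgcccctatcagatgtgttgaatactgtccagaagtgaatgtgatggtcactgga

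Among the other members with several probes, signs differed for PLK1 (-0.29 and, by a dimmer probe, 0.11). They also differed for CENPF (-0.02 and 0.11) and for CKS1B (0.01 and -0.10). The dimmer PLK1 probe read 6.11, 6.45 and 6.57 in control tumors and 6.80, 6.43 and 6.23 after DFX. It was highest in DFX 1 and lowest in control 1. Differences by the brightest and the dimmer probe were -0.26 and -0.07 for CCNB1, and -0.07 and -0.24 for KIF4A. CDK1 had a further probe, for another transcript, near background (well above it in 3 control and 2 DFX-treated tumors) with a difference of -0.40 (SE 0.47). KIF23 was at -0.02 by its brightest and -0.27 by its dimmer probe, with adjusted p-values of 0.988 and 0.748.

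**Figure D4:**
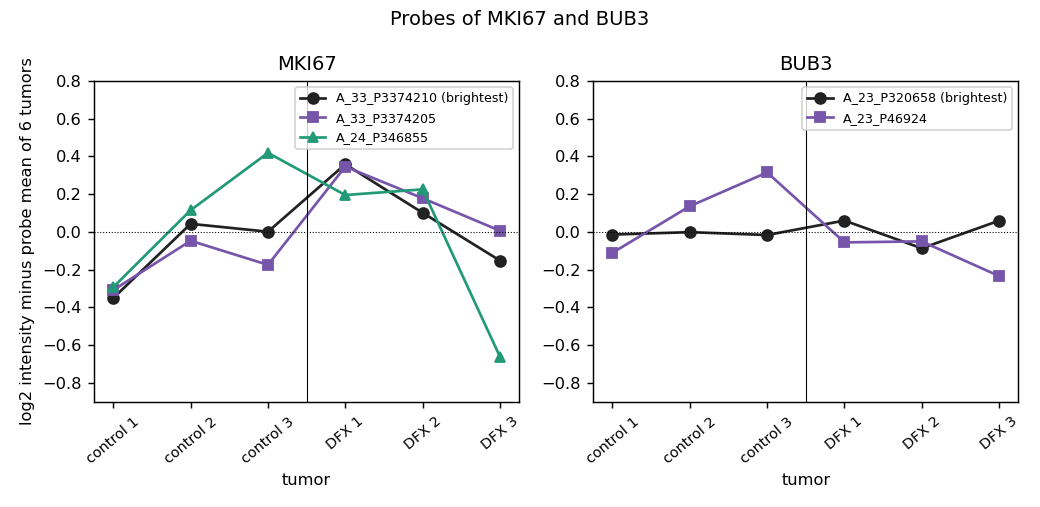
Log2 intensity minus the mean of each probe over the 6 tumors (vertical axis), by tumor (horizontal axis), for the 3 probes of MKI67 and the 2 of BUB3. The brighter MKI67 probes are highest in DFX 1 and the dimmest in control 3, and the brightest BUB3 probe stays level while the other is highest in control 3 and lowest in DFX 3.

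G2/M genes are known to share promoter elements, the CHR (cell cycle genes homology region), bound by DREAM and B-MYB complexes, and CCAAT boxes, bound by NF-Y. RefSeq promoters (GRCh38.p14, 250 bases before to 50 after the transcript start) were found for 39 of the 46 members, in 49 windows, and for 27305 genes in all. Searched on both strands, the CHR letters TTTGAA occurred in 30 of 39 member genes (76.9%), against 18.2% of all genes. The variant TTTAAA, which reads the same on either strand, occurred in 35.9% of members and 14.5% of all genes. CCAAT occurred in 32 of 39 (82.1%), against 39.7%. A CHR of either form together with a CCAAT box was found in 29 of 39 (74.4%), against 12.7% of all genes. The E2F letters TTGGCGC and TTCGCGC, the first of which can overlap a reversed CCAAT box, were less frequent, in 12.8% and 7.69% of members and 3.66% and 2.75% of all genes.

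Positions of the matches were read in the member windows only, so no background over all genes stands beside them. Counted from the transcript start, the median position over all member windows was -28 bases for TTTGAA (quartiles -62.5 and -4.75), -76 for TTTAAA (quartiles -159.2 and -37.5) and -82 for a CCAAT box. The TTTGAA form thus lay nearer the start than CCAAT boxes in the median, whereas TTTAAA lay about as far from it. CCNA2, BUB1 and AURKB had no match to TTTGAA or TTTAAA in their windows, and each had a CCAAT box. Other spellings of the CHR were not searched, so these genes are not shown to lack one. Such matches are a description of letters, and no binding was measured. The 120 bases before the start are given for 7 members that stand in the results above, with CHR matches of either form and CCAAT matches (on either strand) in capitals. By the brightest probe, CCNB1, PLK1, CDC20 and KIF20A are among the widest-ranging members and CKS2 among the narrowest. CCNB2 shows 3 CCAAT boxes, at -120, -87 and -54, before a CHR. CCNA2 has neither of the 2 CHR spellings searched.
CCNB1 (chr5:69167030-69167149, plus strand): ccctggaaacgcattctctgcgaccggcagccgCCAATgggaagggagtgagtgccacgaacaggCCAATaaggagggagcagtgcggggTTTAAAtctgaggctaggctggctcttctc
CCNB2 (chr15:59105026-59105145, plus strand): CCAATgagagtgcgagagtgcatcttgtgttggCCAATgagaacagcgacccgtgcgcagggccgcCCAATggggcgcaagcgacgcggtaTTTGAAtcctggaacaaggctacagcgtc
PLK1 (chr16:23678769-23678888, plus strand): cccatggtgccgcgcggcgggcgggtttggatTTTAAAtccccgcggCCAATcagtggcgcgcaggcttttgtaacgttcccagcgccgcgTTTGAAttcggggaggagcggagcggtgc
CDC20 (chr1:43358861-43358980, plus strand): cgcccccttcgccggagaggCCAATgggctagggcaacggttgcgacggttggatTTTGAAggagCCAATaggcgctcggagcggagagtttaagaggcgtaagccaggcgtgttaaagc
KIF20A (chr5:138178992-138179111, plus strand): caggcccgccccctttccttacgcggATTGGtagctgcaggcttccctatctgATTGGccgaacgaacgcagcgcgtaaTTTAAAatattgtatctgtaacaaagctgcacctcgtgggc
CKS2 (chr9:89311075-89311194, plus strand): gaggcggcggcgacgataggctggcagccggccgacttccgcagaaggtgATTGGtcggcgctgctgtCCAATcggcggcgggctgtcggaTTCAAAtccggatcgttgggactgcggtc
CCNA2 (chr4:121823884-121824003, minus strand): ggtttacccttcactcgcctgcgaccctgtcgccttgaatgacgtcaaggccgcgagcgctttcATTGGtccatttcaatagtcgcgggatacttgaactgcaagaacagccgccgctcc
CCNB2, CKS2 and PLK1 each held the CHR at -29, and CCNB1 the variant form at -30. CKS2 had this arrangement and a span over tumors of 0.39, whereas PLK1 with it had a span of 1.42 by its brightest probe.

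**Figure D5:**
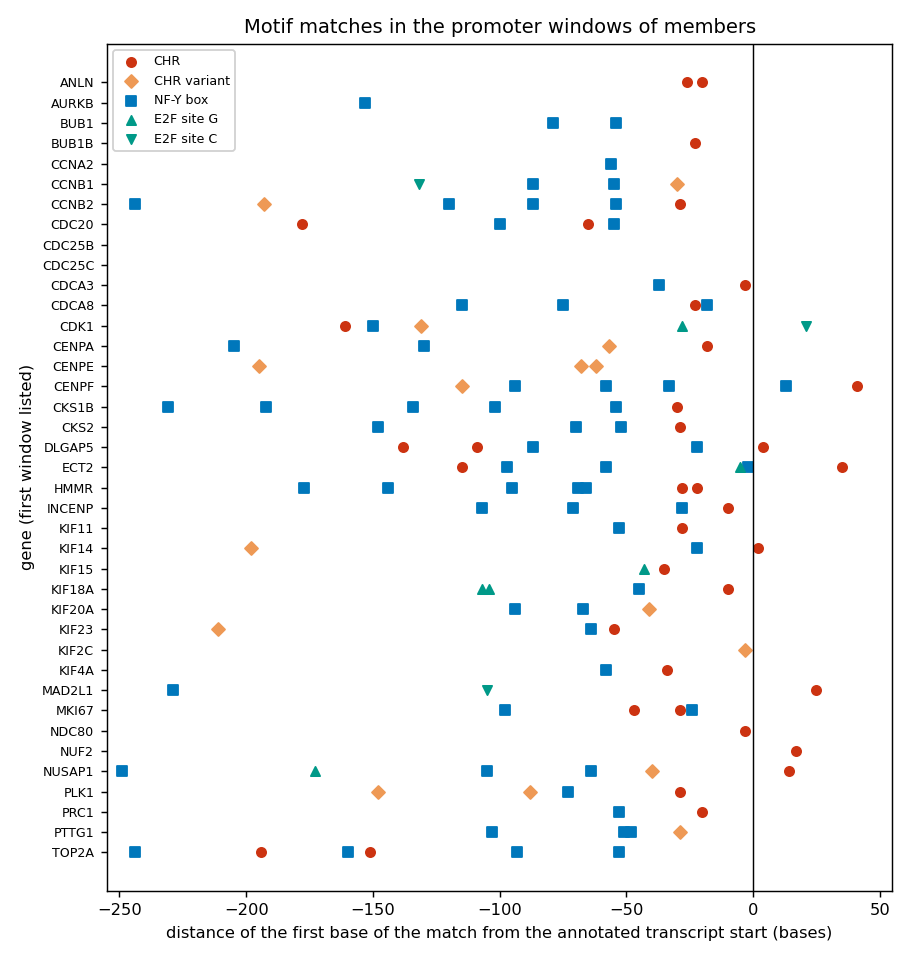
Position of motif matches relative to the annotated transcript start (horizontal axis, bases) in the first promoter window of the 39 members with a RefSeq promoter (vertical axis), where circles and diamonds are the 2 CHR forms, squares NF-Y (CCAAT) boxes and triangles E2F letters. Most circles (TTTGAA) lie close to the start, while diamonds (TTTAAA) and squares are spread further upstream.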

How the data were processed

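Tumors were grouped by the treatment in the sample labels, and no tumor was left out. The authors deposited the scanner output of each array from Agilent Feature Extraction (10.7.1.1 per the file headers, 9.5.1.1 per the labels and the submitters' processing notes). Its intensities are linear and were not scaled between arrays. The p-values of each spot against its background were deposited by the authors as computed by the same software. The authors also deposited a table of their quantile-normalized intensities, used here as an alternative.

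Background-subtracted signals of 58717 non-control spots were put on the log2 scale and quantile-normalized here, after which 1398 values flagged as outliers were left out. Spots were averaged into 50599 probes, of which 31807 had a detection p-value under 0.05 on each of the 6 arrays. These were compared by limma 3.58.1 (lmFit, eBayes; R 4.3.3). P-values were adjusted by Benjamini-Hochberg over all tested probes. A gene is its brightest tested probe, and 22718 named genes were tested. The prior degrees of freedom were 2.04. The procedure was tested on simulated data. Nothing but a separate tumor distinguishes replicates, so p-values measure the spread between these tumors.

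The members, the lists and the rule for named genes were chosen with earlier results of these data known, and no list test was run. Named were CDK1, CCNB1, PLK1, AURKA, AURKB, TOP2A, MKI67, BIRC5 and FOXM1, and the 10 members of lowest p. So were the highest and lowest member of each role group, and genes of other lists with an unadjusted p under 0.05. A further rule asked for a probe at an unadjusted p under 0.05 with a sign unlike the brightest. No member met it. Other genes, tumors and probes named were chosen after their values were seen. Alternatives changed the scaling, background correction (normexp, offset 50), filter, outlier flags, probe rule, test, blocks and the tumors left out.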

Additional observations from a re-analysis of the deposited data

How the results depend on the processing

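The count of members at an unadjusted p under 0.05 was 0 in the reported analysis and under all 18 alternatives, and the count at an adjusted p was 0 in all 17 that gave one. The members' median log2 fold change ranged from -0.19 to 0.11 when single tumors were left out. Over all probes, 2675 passed unadjusted, but 974 when arrays were centred on the members' median (chosen after seeing the data) and 4927 by the Kruskal-Wallis H test, whose p falls under the threshold whenever 3 against 3 do not overlap. Adjusted calls over all probes were 0, but 2 under median scaling, normexp correction and the stricter filter. Over the 5 pathway lists together (other G2/M, APC/C, DREAM, G2 arrest and MCM genes) 2 genes passed unadjusted in the reported analysis, 5 with normexp and with the Kruskal-Wallis H test, 4 with the stricter filter, 1 with the mean of all probes, 1 with the replicate block, 0 with median scaling and with member-centred arrays, and 0 to 5 with single tumors left out (0 without control 2 or DFX 1, 1 without DFX 2, 5 without control 3 or DFX 3). The cause of these moves was not tested. In that order the lists had 47, 13, 14, 9 and 21 genes tested, with PKMYT1 and WEE1 in both the other G2/M and the G2 arrest list. Of all tested genes 7.98% passed unadjusted in the reported analysis.

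Signs turned without a call for some members, among them AURKA, AURKB, CCNB1, CDC20 and PLK1, whose reported differences were among the larger ones. Under median scaling FOXM1 was -0.0259, TPX2 -0.104 and BUB3 -0.0904. TPX2 was -0.00497 under 75th percentile scaling. With the mean of all probes BUB3 was -0.103 and CENPF 0.0441. With member-centred arrays PRC1 was 0.0425 and CENPF 0.0246. Leaving out single tumors gave ANLN -0.293 to 0.0634, AURKA -0.375 to 0.0507, AURKB -0.544 to 0.0141, BUB3 -0.00283 to 0.0711, CCNB1 -0.457 to 0.00642, CDC20 -0.42 to 0.10, CDK1 -0.19 to 0.17, CENPF -0.15 to 0.11, FOXM1 -0.12 to 0.28, NUF2 -0.27 to 0.13, PLK1 -0.542 to 0.0667, PRC1 -0.12 to 0.12 and TPX2 -0.17 to 0.22. Unadjusted calls of other-list genes were lost most often for KRT18, TACC3, SMC2, KRT8 and LUM. The share of called probes that were lower was 58.8%, 42.6% under 75th percentile scaling, 71.8% under median scaling and 42.9% with member-centred arrays.

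Deviations of same-numbered tumors correlated at 0.03, 0.03 and 0.02, and the labels give no shared animal, so tumors were not treated as pairs. With the replicate block 2419 probes passed unadjusted, and member calls stayed at 0. The slide column as a random block gave a correlation of -0.12 and 0 member calls. Dim probes set no limit on the members, all of which were well above background.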

Other observations

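When each array was centred on the median of the 46 members, a step chosen after seeing the data, the pattern of the tumors that most members shared was taken out and the median span of a member over tumors fell from 0.77 to 0.32. Groups that overlapped for all 46 members before then did not overlap for 12, of which 3 were lower and 9 higher after DFX. Of all tested genes 4.72% did not overlap on the same scale and 15.4% before, so the step changed both sides. By limma on the centred scale no member had an unadjusted p under 0.05, the lowest being 0.298 for CDC25B. Since the centring uses the members themselves, these values are a description only.

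The 3 lower genes were CCNB1, CCNA2 and KIF20A. Relative to the members' median, CCNB1 stood at 1.34, 1.30 and 1.64 in control tumors and at 1.22, 1.204 and 1.21 after DFX, and CCNA2 at -1.19, -1.12 and -0.98 in control tumors and at -1.30, -1.26 and -1.30 after DFX. By their brightest probes both cyclins are thus low in all 3 DFX-treated tumors on this scale. The margins were under those between tumors on the original scale. A dimmer probe of CCNB1 was not read on the centred scale. On the original scale it read 9.99, 10.24 and 10.64 in control tumors and 10.43, 10.36 and 9.89 after DFX, with overlapping groups. Among the higher genes were CDC25B, UBE2C, BIRC5, KIF15 and INCENP. Some of the higher genes were barely separated. CDC25B stood at 1.133 in control 2 and at 1.145 in DFX 1. KIF14 stood at -0.876 in control 3 and at -0.870 in DFX 3, and FOXM1 at -0.107 in control 2 and at -0.103 in DFX 3. UBE2C stood at 2.62, 2.63 and 2.73 in control tumors and at 2.87, 2.84 and 2.99 after DFX, and BIRC5 at 2.26, 2.22 and 2.21 in control tumors and at 2.45, 2.34 and 2.48 after DFX.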
